A study of Homo sapiens with 16 samples.

Results

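The proteasome subunit genes were taken as every gene whose symbol begins with PSMA, PSMB, PSMC or PSMD followed by digits, together with PSME1 to PSME4 and without the immunoproteasome genes PSMB8 and PSMB9. The gene annotation holds 41 such symbols, of which 39 were listed in both deposited tables. PSMA8 and PSMB11 were listed in neither. The 39 genes stood among 10799 transcripts in the table of the metastatic derivative and 8980 transcripts in the table of the HNRNPC knock-down. All 39 averaged 10 or more in footprints and in RNA in each table, as did 8393 and 4283 genes in all. By their place in the particle, 15 members were core subunits (PSMA and PSMB), 9 were base subunits, 8 were lid subunits, 3 were assembly chaperones and 4 were activators.

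The proteasome is the protease that degrades proteins marked with ubiquitin in the cytosol and nucleus. Its core is a barrel of stacked rings, in which PSMA subunits form the outer rings that gate the entry and PSMB subunits form the inner rings that hold the catalytic sites. A regulatory particle caps the barrel. Its base holds the PSMC ATPases, which unfold substrates and thread them into the core, and its lid holds the deubiquitinase that removes the ubiquitin chain. Constitutive subunits of the core are taken up in equal proportion to one another, as are those of the regulatory particle. Tumour cells are known for their reliance on proteasome activity.

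The study profiled ribosome-protected footprints (RPF) and matched RNA in 16 libraries, with 2 replicates of each kind in each of 4 lines. The parental line was MDA-MB-231, a human breast cancer line that lacks the 3 receptors used to classify these tumours, and MDA-LM2 is its derivative selected in vivo for colonisation of the lung. The other pair were MDA-MB-231 cells that carried a dCas9-KRAB repressor for CRISPR interference, with a control guide (sgControl) or a guide directed to HNRNPC (sgHNRNPC), which encodes a nuclear RNA-binding protein of uridine-rich tracts. Guides were delivered by lentivirus with puromycin selection, and all lines grew in high-glucose medium with serum. The study describes its sequencing replicates as biological duplicates, and the p-values measure the spread between these libraries. In bulk libraries, fewer cells that express a gene and less RNA per cell cannot be told apart.

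Summed over the listed transcripts, normalised signal ranged from 7023013 to 8326052 in RNA and from 650736 to 679726 in RPF for MDA-LM2 and parental cells. In the knock-down table the totals were 5415889 to 5559039 in RNA and 158011 to 167928 in RPF. The depth of the RPF libraries in reads is unknown. The proteasome members took up 0.611 to 0.634% of the RNA signal and 1.05 to 1.11% of the RPF signal in the first pair of lines. In the knock-down pair they took up 0.445 to 0.469% and 1.05 to 1.15%. The largest single transcript took 3.47 to 5.83% of the RNA signal in the first pair. It took 18.1 to 21.1% in the knock-down pair, which lowers the RNA share of all other transcripts there. The mesenchymal marker VIM lay between 31464 and 44870 in RNA of MDA-LM2 and parental cells, and ESR1, PGR and CDH1 were not listed in either table. The receptor gene ERBB2 and the epithelial gene EPCAM were listed, with RNA at 708 to 812 and 31.9 to 46.5 in these lines and at 127 to 180 and 50.7 to 86.9 in the knock-down pair. HNRNPC, the targeted gene, measured 2162 and 2146 in RNA of sgControl and 1147 and 1183 in sgHNRNPC, a log2 change of -0.89 (limma adjusted p = 2.29e-35).

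The study describes poly(U) motifs in HNRNPC-bound sequences. A form of such a motif chosen for this search, a C followed by 6 U, occurred in the 3′ UTR of 14 of the 39 members (35.9%), against 42.9% of the 10521 listed transcripts with an annotated 3′ UTR. Of the 5 members called in RNA between MDA-LM2 and parental cells, PSMA4, PSMB2, PSMC2 and PSMD11 held it and PSMA2 did not. PSME1, PSMB6 and PSMC3, the members called in RNA on knock-down, did not hold it. The 3′ UTRs of PSMA4, PSMB2, PSMC2 and PSMD11 were 3473, 3726, 1341 and 2567 bases long, against 713 in PSMA2. The part of length was not tested. Sites nearest the stop codon are shown for the holders among the RNA calls between the lines. Each is given 5′ to 3′ on the transcript strand in GRCh38 coordinates, with the motif in capitals.
PSMA4, chr15:78549013-78549041, plus strand: ggaaggcuuuaCUUUUUUuaacuggugca
PSMB2, chr1:35603218-35603246, minus strand: uugccagggaaCUUUUUUuugaugggcuc
PSMC2, chr7:103368147-103368175, plus strand: aaaauuguaugCUUUUUUccauaucucuu
PSMD11, chr17:32480818-32480846, plus strand: gcuaggagauuCUUUUUUcuuuuuguucu

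Proteasome genes are known targets of NFE2L1, a transcription factor that binds the antioxidant response element. The letters TGACNNNGC or their complement, searched on both strands from 250 bases before to 50 after each RefSeq start (GRCh38.p14), lay in the windows of 12 of the 34 members that had a window (35.3%). Of all listed genes with a window, 19.5% held them. By group, they lay in 2 of 11 core members (18.2%), 3 of 8 base, 2 of 8 lid, 2 of 3 chaperones and 3 of 4 activators. Of the 8 members with a window that were called in a comparison, 2 held them (25.0%). PSMA7, PSMB1, PSMB6, PSMB7 and PSMD4 had no window. The windows of PSMA4 and PSME1, the members called in a comparison that held the letters, read as follows, with the match in capitals.
PSMA4, chr15:78540650-78540678, plus strand: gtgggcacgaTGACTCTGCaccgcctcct
PSME1, chr14:24136098-24136126, plus strand: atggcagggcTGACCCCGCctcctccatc

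Within each line, core subunits carried more footprints per kilobase of coding sequence than lid subunits. The median RPF density of the 15 core members was 2.28 and 2.11 times that of the 8 lid members in the parental replicates and 2.42 and 1.98 times in MDA-LM2. It was 1.83 and 1.84 times in sgControl and 2.06 and 2.14 times in sgHNRNPC. Between 11 and 14 of the 15 core members lay above the highest lid member in every library. In RNA per kilobase of mRNA, the core median was 1.38 to 1.59 times the lid median in MDA-LM2 and parental libraries. It was 1.97 and 1.96 times in sgControl, above the RPF ratio there, and 1.76 and 1.60 times in sgHNRNPC. Coding sequences were 603 to 831 bases long in the core and 930 to 1602 in the lid. The part of coding length in the RPF ratio was not tested. No test was applied, since subunits are not replicates.

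In the MDA-LM2 and parental libraries the core medians were 256 to 294 normalised RPF per kilobase, the base medians 155 to 160 and the lid medians 121 to 133. In the knock-down libraries they were 62.0 to 72.5, 36.3 to 44.1 and 31.3 to 34.7. The core median ranked at percentile 95.0 to 95.8 among 8208 genes of the first table with a footprint mean of at least 10. It ranked at 88.8 to 90.6 among 4190 such genes of the second. The PSMB median lay above the PSMA median in every library, at 294 to 327 against 244 to 280 and at 66.7 to 84.8 against 61.8 to 70.3. Without PSMB10, which lay below every PSMA member, the PSMB medians were 312 to 330 and 73.2 to 86.3.

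Over all 15 core members the SD of log2 RPF per kilobase was 0.48 to 0.71, and the highest member exceeded the lowest, PSMB10, by 3.52 to 7.46 times. With PSMB10 left aside, which is the immunoproteasome counterpart of PSMB7 and low in these cells, the 14 other core members spread with an SD of 0.29 to 0.40 in log2 RPF per kilobase. The lid members spread with an SD of 0.22 to 0.37 and the base members with 0.41 to 0.60. Genes with a footprint mean of at least 10 spread with 1.45 to 1.78. The highest of the 14 core members exceeded the lowest by 1.81 to 2.93 times in RPF per kilobase. RNA per kilobase of mRNA depends on the annotated length of the transcript. Among the same core members it differed by 30.9 to 75.8 times in MDA-LM2 and parental libraries. In the knock-down libraries it differed by 11.5 to 13.4 times. Lid members differed in RNA by 14.0 to 21.8 times in MDA-LM2 and parental libraries. In the knock-down libraries they differed by 1.57 to 1.85 times in RNA, beside 1.75 to 2.07 times in RPF. Across the 39 members of a library, which share its depth and are not independent replicates, log2 RNA and RPF per kilobase had a Pearson r of 0.569 to 0.626 in the first table.

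**Figure D1:**
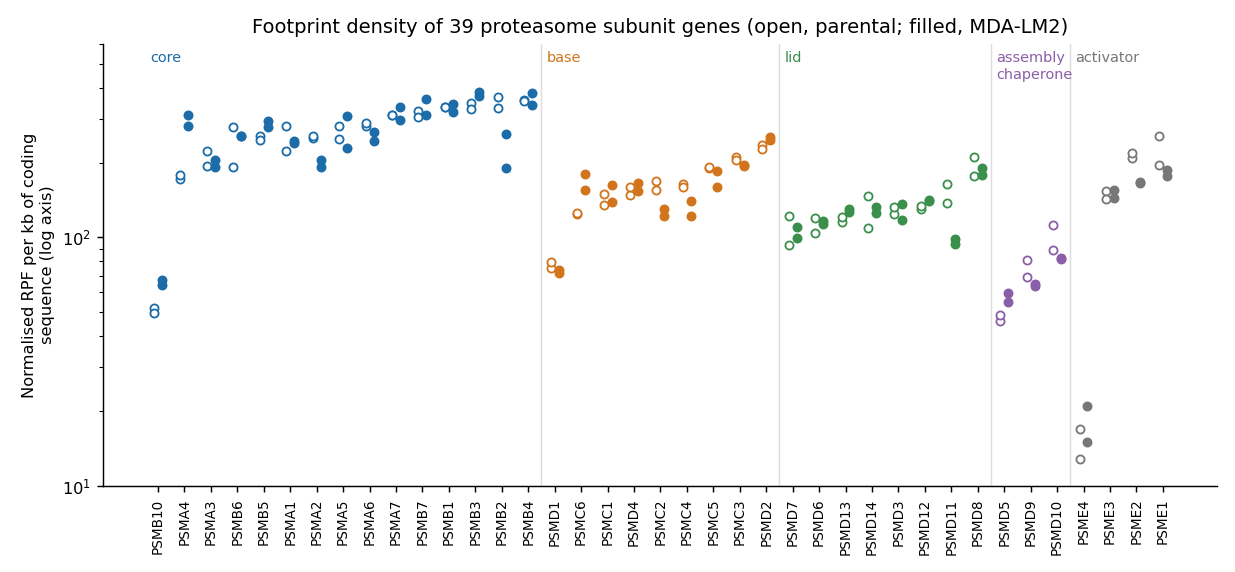
Normalised RPF signal per kilobase of coding sequence, on a log axis, for each of the 39 proteasome subunit genes grouped by place in the particle. Open points are the 2 parental libraries and filled points the 2 MDA-LM2 libraries; the core members other than PSMB10 lie close together above most lid members, and PSME4 is lowest.

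PSMB4, PSMB2 and PSMB3, all structural members of the inner rings, had the highest RPF density in parental cells, with means of 355, 349 and 338 per kilobase. PSMB3, PSMB4 and PSMB7 led in MDA-LM2, with means of 378, 362 and 335. PSMB3, PSMB2 and PSMB4 led in sgControl at 83.6, 81.0 and 79.9. PSMB3, PSMB4 and PSMA7 led in sgHNRNPC at 106, 92.3 and 87.2. These leaders lay within a narrow band in each line.

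PSME4, a nuclear activator of the core, had the lowest RPF density in all 4 lines. It measured 12.8 and 16.9 in parental cells, 14.9 and 21.0 in MDA-LM2, 4.77 and 3.34 in sgControl and 2.36 and 3.45 in sgHNRNPC. PSMD5, a chaperone that leaves the base before the particle is complete, followed at 46.0 and 48.6, 59.8 and 54.7, 12.9 and 10.8, and 15.7 and 16.6. PSMB10 measured 52.0 and 49.4 in parental cells and 67.5 and 64.4 in MDA-LM2. The other low member was the chaperone PSMD9 in MDA-LM2 and sgControl, with means of 64.2 and 14.1, and the large base scaffold PSMD1 in sgHNRNPC, with a mean of 16.8. In RNA per kilobase, PSMA7, a subunit of the outer ring, was highest in all lines and averaged 4928 in parental cells, where PSMB3 and PSMC3 followed at 2740 and 2414. PSME4 was lowest there at 45.2, after PSMA4 at 68.0 and PSMD5 at 79.7, and in MDA-LM2 the lowest were PSME4 at 46.5, PSMD12 at 87.6 and PSMD5 at 102. PSMB10, PSMD9 and PSME4 were lowest in both knock-down lines, at 39.7, 77.6 and 80.9 in sgControl.

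Setting MDA-LM2 beside parental cells asked how mRNA and ribosome occupancy differ between a highly and a poorly metastatic line. The share of proteasome subunits called in RNA was near that of all transcripts. PSMA4 was higher in MDA-LM2, at 160% of its parental mean, and PSMD11, PSMC2, PSMA2 and PSMB2 were lower, at 64.0%, 64.0%, 66.8% and 72.9%. In all, 5 of 39 members passed an adjusted p of 0.05 (12.8%), against 16.6% of the 10799 transcripts tested. Of all transcripts 6.61% were called higher and 10% lower. With libraries rescaled to equal totals the balance of the calls turned, to 12.9% higher and 6.24% lower over all transcripts and to 3 members higher (PSMA4, PSMD2 and PSMD5) and 3 lower (PSMA2, PSMC2 and PSMD11). The 5 were 3 core members, 1 base member and 1 lid member. Changes are on the scale of log2(value + 1), which understates the change of low genes.

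PSMA4, an outer-ring subunit, measured 313 and 282 in parental RNA and 422 and 528 in MDA-LM2. Its RPF signal was 135 and 139 in parental cells and 244 and 219 in MDA-LM2. Neither kind of library overlapped between the lines. The log2 change was 0.67 ± 0.15 (SE) in RNA (limma adjusted p = 0.0189) and 0.75 ± 0.12 in RPF (limma adjusted p = 2.43e-05).

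PSMD11, a scaffold subunit of the lid, measured 1543 and 1538 in parental RNA and 1050 and 922 in MDA-LM2. Its RPF signal fell from 207 and 174 to 125 and 119. The log2 change was -0.65 ± 0.12 in RNA (limma adjusted p = 0.00872) and -0.64 ± 0.13 in RPF (limma adjusted p = 0.000653), so both readouts moved by a like amount. PSMC2, an ATPase of the base, was at 813 and 804 in parental RNA and at 529 and 505 in MDA-LM2. Its RPF signal was 201 and 218 against 168 and 158. It changed by -0.64 ± 0.11 in RNA (limma adjusted p = 0.00718) and by -0.36 ± 0.12 in RPF (limma adjusted p = 0.038).

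PSMA2, the neighbour of PSMA4 in the outer ring, measured 435 and 462 in parental RNA and 319 and 280 in MDA-LM2, with RPF at 176 and 180 against 134 and 143. It changed by -0.58 ± 0.13 in RNA (limma adjusted p = 0.0184) and by -0.36 ± 0.12 in RPF (limma adjusted p = 0.0497). PSMB2 of the inner ring measured 1018 and 1083 against 769 and 763 in RNA and 199 and 222 against 157 and 115 in RPF. It changed by -0.45 ± 0.11 in RNA (limma adjusted p = 0.0276) and by -0.64 ± 0.13 in RPF (limma adjusted p = 0.000924). No library of these members overlapped with the other line.

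These calls leaned on single libraries. Without parental replicate 1, only PSMA4 of the members was called in RNA (limma adjusted p = 0.0487), and without parental replicate 2 none was. In these fits the adjusted p of the others lay between 0.0813 and 0.352. In the same fits 6.71% and 7.88% of all transcripts were called. Without MDA-LM2 replicate 1 there were 22 calls among the members (46.7% of all transcripts were called), and without MDA-LM2 replicate 2 there were 13 (31.2% of all transcripts). PSMB2 also lost its RNA call with libraries rescaled to equal totals (adjusted p = 0.0975) and with quantile normalisation (0.0588). The log2 changes of the 5 members kept their sign in every alternative. In RPF, PSMA4 and PSMD11 were past the threshold in all 14 settings, with adjusted p up to 0.000606 and 0.0335.

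In footprints 6 of the 39 members were called (15.4%), against 12% of 8393 genes, of which 5% were called higher and 7.03% lower (6.74% and 5.68% with equal totals, where 2 members were higher and 2 lower). The 6 were the 5 named members and PSMC6, another ATPase of the base. PSMC6 rose from 150 and 151 to 188 and 218 in RPF, a log2 change of 0.42 ± 0.12 (limma adjusted p = 0.0181), and its RNA was at 398 and 372 in parental cells and 421 and 474 in MDA-LM2. Its RPF call was lost without parental replicate 1 (adjusted p = 0.0736), without parental replicate 2 (0.0552) and without MDA-LM2 replicate 2 (0.246). PSMB2 lost its RPF call without MDA-LM2 replicate 2 (adjusted p = 0.0568). PSMA2 and PSMC2 lost theirs without any of the 4 libraries, with adjusted p of 0.0553 to 0.219. Both also lost it with equal totals, with quantile normalisation and without the filter on low values, and PSMA2 with an added value of 0.5, with adjusted p of 0.0506 to 0.129.

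Relative to the other core members, PSMA4 changed its place. Its RPF density was 0.614 and 0.623 of the median of the other core subunits in parental cells, which was rank 2 of 15 from the bottom. It was 1.11 and 1.12 of that median in MDA-LM2, at rank 10. PSMB2 went from 1.24 and 1.31 to 0.868 and 0.714, and PSMA2 from 0.897 and 0.901 to 0.637 and 0.765. Among the lid members, PSMD11 went from 1.36 and 1.04 to 0.784 and 0.710 and had the lowest density of the 8 in both MDA-LM2 replicates. These ratios use the same footprints as the RPF test and add no independent support.

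**Figure D2:**
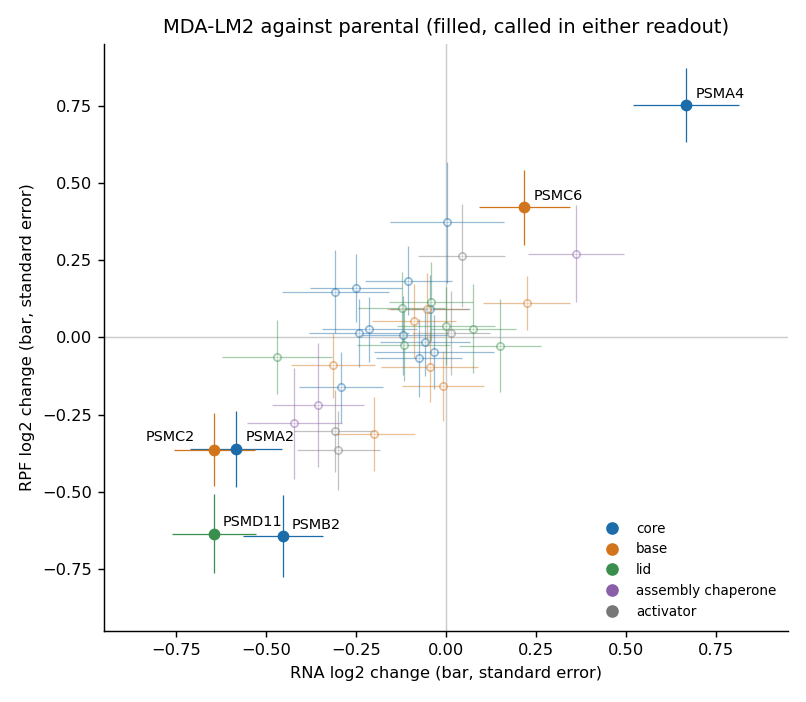
Log2 RNA change (x axis) against log2 RPF change (y axis) of each proteasome subunit gene in MDA-LM2 against parental cells, coloured by place in the particle, with the standard error of the limma fit as bars. Filled, named points are the 6 members called in either readout; PSMA4 lies at the top right at 0.67 and 0.75, and PSMD11 at the bottom left at -0.65 and -0.64.

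Beyond PSMA4, PSMD11, PSMC2, PSMA2, PSMB2 and PSMC6, no member was called in RNA or RPF. The largest RNA changes among the uncalled were PSMD8 at -0.47, PSMD10 at -0.42, PSMD5 at 0.36 and PSMD9 at -0.36. Their limma adjusted p were 0.07, 0.0611, 0.102 and 0.0939. PSMD8 changed by -0.06 in RPF. The median log2 RNA change over all 39 was -0.11, beside -0.02 over all transcripts, with 30 members below 0. When libraries were rescaled to equal totals, which moved the median of all transcripts from -0.02 to 0.15, the members' median was 0.06. In RNA, 6 of the 39 members lay higher and 18 lower in MDA-LM2 with no overlap of replicates, against 29% and 32.8% of all transcripts. In RPF the counts were 9 and 13, against 25.7% and 27.6%, and the median change was 0.01.

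The catalytic subunits were not called in either readout. PSMB5, with chymotrypsin-like activity, measured 202 and 194 in parental RPF and 232 and 219 in MDA-LM2, a log2 change of 0.18. PSMB6, with caspase-like activity, measured 200 and 138 against 184 and 184, and PSMB7, with trypsin-like activity, 269 and 253 against 298 and 259. Their RNA changes were -0.11, -0.31 and -0.05. PSMB10 was at 42.6 and 40.4 in parental RPF and 55.3 and 52.7 in MDA-LM2, with no overlap, a log2 change of 0.37 (limma adjusted p = 0.242). Its RNA replicates overlapped, at 281 and 279 against 323 and 243.

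In the regulatory particle, the deubiquitinase PSMD14 had RNA and RPF changes of 0.07 and 0.03 and the ubiquitin receptor PSMD4 had -0.09 and 0.05. PSMD2, the base scaffold with the highest RPF density of the base, measured 5769 and 5842 in parental RNA and 6763 and 6785 in MDA-LM2, a log2 change of 0.22 (limma adjusted p = 0.24). The chaperone PSMD5 was at 248 and 291 against 342 and 348, a log2 change of 0.36 (limma adjusted p = 0.102). Neither passed the test, and neither overlapped between lines.

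PSME1 and PSME2 form the interferon-inducible activator ring and lie beside each other on chromosome 14. PSME1 RNA was 698 and 718 in parental cells and 554 and 588 in MDA-LM2, and PSME2 RNA was 659 and 624 against 507 and 534. PSME2 footprints were at 150 and 157 against 119 and 118. Their log2 changes were -0.31 and -0.30 in RNA (limma adjusted p = 0.098 and 0.111) and -0.30 and -0.37 in RPF (limma adjusted p = 0.141 and 0.0572), short of the threshold. PSME3, a nuclear activator, changed by 0.01 in both readouts, and PSME4 by 0.04 and 0.26.

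Translational efficiency (TE), the RPF change minus the RNA change, was called for none of the 39 members by limma, and 1 member, PSMB3, had an unadjusted p under 0.05. Over all genes 0.0357% were called. The median TE change was 0.13 on the log2 scale, beside 0.03 over all genes, and 29 members were above 0. The highest were PSMB6 at 0.46, PSMB3 at 0.41 and PSMD8, a lid subunit, at 0.41. The lowest were PSMB2 at -0.19, PSMD7, the partner of PSMD14 in the lid, at -0.18 and the ATPase PSMC5 at -0.15. The smallest adjusted p among the members was 0.89. A logistic regression in the manner of the study, run here on normalised values summed over replicates, takes reads as its units. At an adjusted p of 0.05, where the study cut at an unadjusted 0.01, it called PSMB3, PSMB6 and PSMD8 higher. It called 2.16% of all genes, with 1.01% of genes higher. Core and lid did not separate here: the core median minus the lid median was -0.04 in RNA change, 0.01 in RPF change and 0.07 in TE change.

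Most neighbours of the 5 members called in RNA lay on the same side of 0 as the member. Within 2 Mb of PSMA2 (chr7:42916861-42932174, GRCh38, minus strand), all 22 other transcripts had a lower RNA level in MDA-LM2, with a median log2 change of -0.56. Around PSMC2 (chr7:103347643-103369395, plus strand), 21 of 21 were lower, with a median of -0.47. Around PSMA4 (chr15:78540444-78552417, plus strand), 18 of 19 were higher, with a median of 0.64. Around PSMD11 (chr17:32444510-32483319, plus strand), 15 of 18 were lower, with a median of -0.25. Around PSMB2 (chr1:35599541-35641526, minus strand), 18 of 24 were lower, with a median of -0.19. Of the 7223 genes with at least 15 such neighbours, 5.87% had 90% or more of them lower and 1.56% had 90% or more of them higher. PSMD11 and PSMB2 did not reach that cut. Some uncalled members also had mostly lower neighbours, as PSMC4 (53 of 63, its own change -0.20) and PSMD13 (30 of 38, its own change -0.04). Around PSMD12, which changed by -0.12, 10 of 12 were higher, and around PSMB3 19 were lower and 19 higher.

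In footprints the neighbours of these 5 members also lay mostly on the member's side. Around PSMA4, 14 of 14 neighbours were higher in RPF, with a median of 0.52, and around PSMA2, 16 of 18 were lower, with a median of -0.42. Around PSMD11, PSMB2 and PSMC2, 11 of 13, 13 of 19 and 8 of 11 were lower. Around PSMC6, which was higher in RPF, 9 of 16 neighbours were lower, with a median of -0.07. Over whole chromosomes the median RNA change was -0.36 for the 494 transcripts of chromosome 7 and 0.24 for the 327 of chromosome 15. Around PSME1 and PSME2, 28 of 38 neighbours were lower, with a median of -0.16. In the knock-down comparison no gene with at least 15 neighbours had 90% of them on the same side, and the median RNA change around PSMA4 was -0.01. The part of the neighbourhood in the members' changes was not tested.

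**Figure D3:**
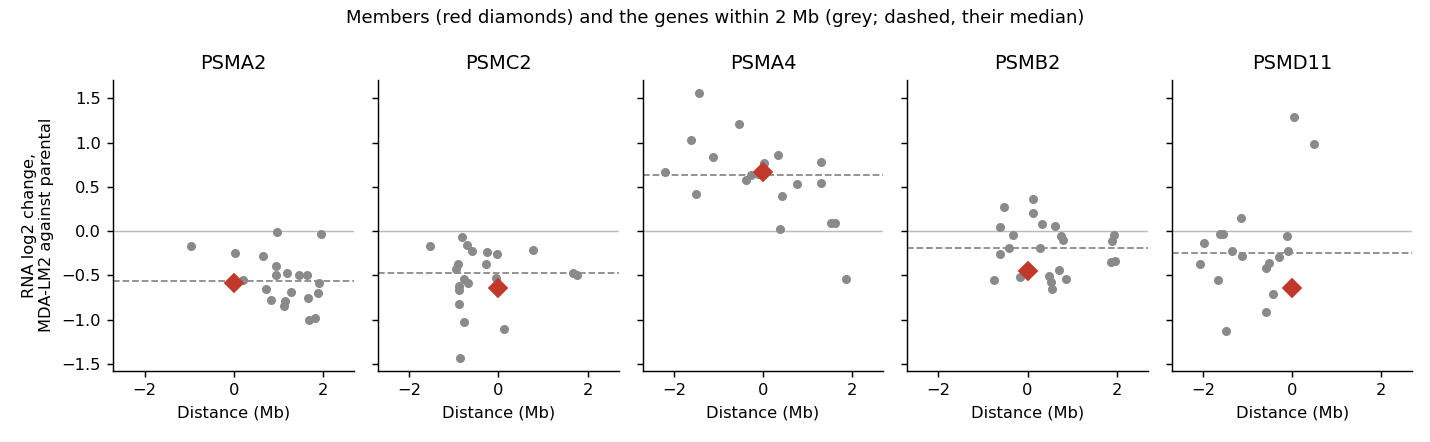
Log2 RNA change in MDA-LM2 against parental cells of the 5 members called in RNA (red diamonds) and of transcripts within 2 Mb (grey points), by distance from the member in Mb; the dashed line is the median of the neighbours. All 22 neighbours of PSMA2 and all 21 of PSMC2 lie below 0, and 18 of 19 around PSMA4 lie above 0.

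Across the 39 members, RNA and RPF changes between the lines went together, with a Pearson r of 0.805 and a Spearman rho of 0.685. Over 8215 genes the values were 0.769 and 0.654. Genes are not independent replicates and share their libraries, so these are descriptions. Members with and without the C and 6 U motif had median RNA changes of -0.12 and -0.08 and median TE changes of 0.11 and 0.14.

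The comparison of sgHNRNPC with sgControl asked what follows from lower HNRNPC within the parental background. Here 3 of the 39 members differed in RNA (7.69%), against 10% of 8980 transcripts, with 3.41% higher and 6.64% lower (3.95% and 4.57% with quantile normalisation, where PSME1 and PSMB6 were the members called). PSME1 was higher, and PSMB6 and the ATPase PSMC3 were lower, at 120%, 81.4% and 85.9% of their sgControl means. PSME1 measured 543 and 461 in sgControl and 587 and 619 in sgHNRNPC, a log2 change of 0.27 ± 0.07 (limma adjusted p = 0.00717). PSMB6 measured 432 and 468 against 389 and 344, a log2 change of -0.30 ± 0.08 (limma adjusted p = 0.00857). PSMC3 measured 974 and 918 against 791 and 834, a log2 change of -0.22 ± 0.06 (limma adjusted p = 0.00864).

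Without sgControl replicate 2 neither PSME1 nor PSMB6 was called (limma adjusted p = 0.312 and 0.131), nor were they without sgHNRNPC replicate 2 (0.161 and 0.277). PSMC3 was not called without sgControl replicate 1 or sgHNRNPC replicate 1 (0.149 and 0.16), nor with quantile normalisation (0.0582). The median RNA change of the members was -0.04, beside -0.02 over all transcripts, and 7 members lay higher and 12 lower with no overlap, against 21.7% and 28.9%. PSMB10 had the largest positive change at 0.35 (limma adjusted p = 0.416), from 41.3 and 36.2 to 51.2 and 47.8, and the chaperone PSMD9 had -0.25 (limma adjusted p = 0.187). PSMD5 was at 0.21 (limma adjusted p = 0.0983). PSME2, PSME3 and PSME4 were at 0.14, 0.06 and -0.13.

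No member was called in footprints on knock-down, and 3 had an unadjusted p under 0.05. Over all 4283 genes 0.0233% were called. At an unadjusted limma p of 0.01, PSMA4 alone of the members passed, against 1.98% of all genes. The study used this cut for TE changes from its logistic regression. PSMA4 was again among the highest, at 21.7 and 29.8 in sgControl and 40.2 and 41.2 in sgHNRNPC, a log2 change of 0.66 ± 0.24 (limma adjusted p = 0.483), while its RNA was at 652 and 654 against 619 and 681. PSMD9 measured 12.4 and 6.57 against 12.5 and 27.0, a log2 change of 0.95 ± 0.41 (limma adjusted p = 0.554) in which sgHNRNPC replicate 2 stood above the 3 other libraries. Without sgHNRNPC replicate 1 PSMD9 was the only member called in RPF, where 0.957% of all genes were called. PSMB7 was at 44.9 and 42.5 against 50.1 and 76.1, a log2 change of 0.49 (limma adjusted p = 0.545). The lowest were the activators PSME4 at -0.46 and PSME3 at -0.31 and the lid subunit PSMD12 at -0.25, with adjusted p of 0.768 or more.

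In footprints 28 of 39 members had a log2 change above 0, with a median of 0.14 beside 0.02 over all genes, and 12 lay higher and 5 lower with no overlap, against 20.8% and 17.1%. The members' median was 0.03 without sgControl replicate 1. Core members were above 0 in 13 of 15 cases and lid members in 3 of 8. The core median minus the lid median was 0.20 in RPF change and 0.04 in RNA change. A related measure, core minus lid in mean log2 RPF per kilobase of a library, had an SD of 0.09 between replicates. That measure was 0.757 and 0.783 in sgControl and 1.11 and 0.925 in sgHNRNPC. With 2 replicates a line, an exact permutation test of core minus lid could not pass the threshold, and none was run.

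TE on knock-down was called for none of the 39 members and none of the 4283 genes by limma. Among the members 4 had an unadjusted p under 0.05, and over all genes 332 did. The highest TE changes were those of PSMD9 at 1.20, PSMA4 at 0.66 and PSMC3 at 0.53, with adjusted p of 0.57 to 0.628. The lowest were PSME3 at -0.37, PSME4 at -0.33 and PSMD12 at -0.25. Members that held the C and 6 U motif in the 3′ UTR had a median TE change of -0.04 and the other members 0.20, a description without a test. RNA and RPF changes of the members had a Pearson r of -0.0577 and a Spearman rho of -0.0312, beside 0.25 and 0.228 over 4192 genes.

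**Figure D4:**
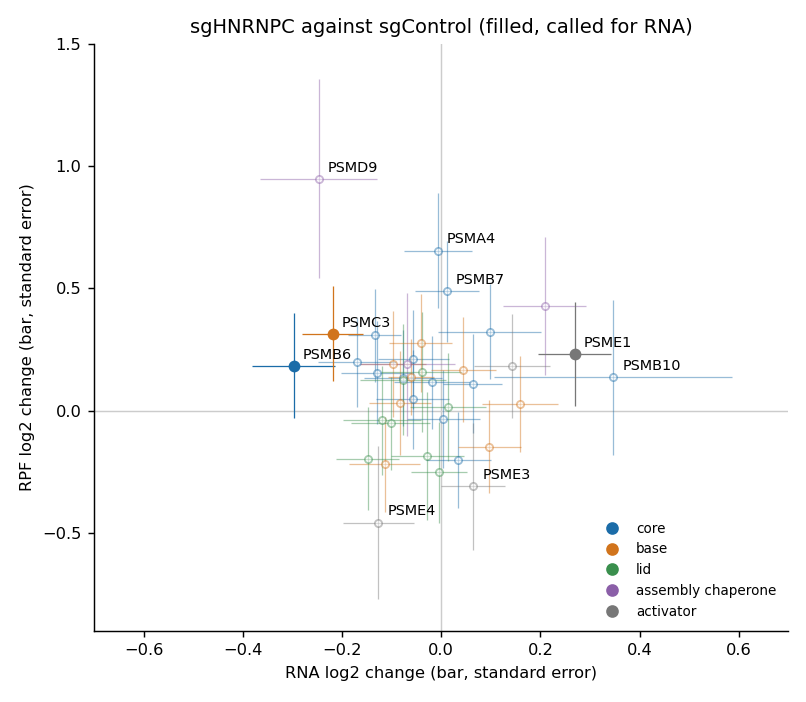
Log2 RNA change (x axis) against log2 RPF change (y axis) of each proteasome subunit gene in sgHNRNPC against sgControl, coloured by place in the particle, with the standard error of the limma fit as bars. Filled points are PSME1, PSMB6 and PSMC3, the members called in RNA; PSMD9 is highest in RPF at 0.95 with a wide error, and PSME4 lowest at -0.46.

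Other genes of the pathway gave a further reading. Of 33 listed genes for assembly factors, bound factors, ubiquitin and its delivery, transcriptional control and the immunoproteasome with TAP1, 2 were called in RNA of MDA-LM2, both higher. These were UBQLN2, a shuttle that brings substrates to the proteasome, at 1.11 (limma adjusted p = 0.00253), and PSMF1, an inhibitor of the core, at 0.50 (limma adjusted p = 0.0202). In RPF, UBQLN2 at 1.11, PSMF1 at 0.57 and the ubiquitin-activating enzyme UBA1 at 0.50 were called higher.

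POMP, which guides assembly of the core, had RNA and RPF changes of 0.24 and -0.40, neither called. NFE2L1 was at 0.10 and 0.15, and the immunoproteasome genes PSMB8 and PSMB9 at 0.07 and -0.02 in RNA. On knock-down, ADRM1, a ubiquitin receptor, was called lower in RNA at -0.31, and NGLY1, which activates NFE2L1, at -0.37. The segregase VCP was at -0.21, its cofactor NPLOC4 at -0.24, and the ubiquitin gene UBB at -0.15, all called lower. None of 26 was called in RPF or TE.

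The parental and sgControl libraries come from the same parental line but were normalised in separate tables, so no test was made between them. The RPF signal of the members kept its order across the tables, with a Pearson r of 0.946 over 39 members in log2 values, and 0.943 over all shared genes. In RNA r was 0.394 over the members and 0.687 over all. The log2 difference between tables ran from -1.45 for PSMD12, which has the lowest GC content of the members at 37.5%, to 3.09 for PSMB3 in RNA, and from 1.24 for PSMB10 to 2.55 for PSMB7 in RPF. Over the members it had an r of 0.87 with transcript GC content in RNA and 0.106 in RPF. RNA and TE levels of the members were therefore compared only within a table, which does not remove a relation with GC content there. Replicate 2 minus replicate 1 of MDA-LM2 RNA had an r of -0.535 with GC content over the members. Between MDA-LM2 and parental cells, the r with GC content was -0.117 for RNA change and 0.252 for TE change over the members. Over 8215 genes these were -0.272 and 0.176. The part of GC content in the RNA levels was not tested further.

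**Figure D5:**
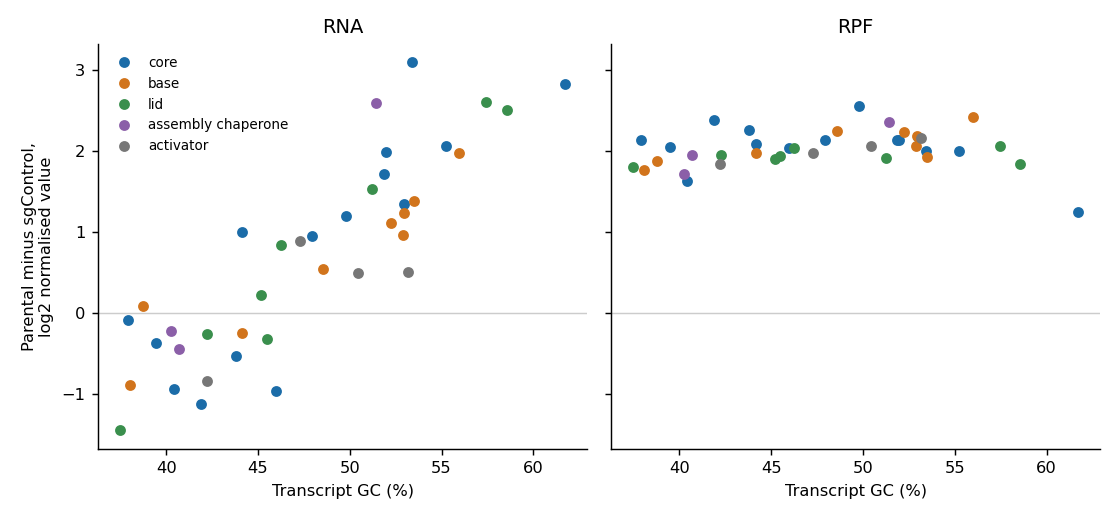
Log2 normalised value of each member in parental minus sgControl cells, for RNA (left) and RPF (right), against the GC content of the transcript in percent, coloured by place in the particle. The RNA difference rises with GC content over the 39 members (r = 0.87), and the RPF difference has an r of 0.106.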

How the data were processed

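RNA and RPF libraries of human MDA-MB-231 derivatives were analysed from 2 deposited tables, 8 libraries each. Per the submitters' processing notes the authors used cutadapt 2.3, Bowtie2 2.3.5, UMI-tools and SAMtools with hg38. The deposited values are normalised signal per transcript, scaled by the authors within each table, with a lower limit on listed transcripts; which footprint corrections were applied is not given in the sources used here. RNA values were whole multiples of a step of 0.883 to 1.11 in all cases (tolerance 0.01 of a step), and RPF values fell on no step.

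Transcripts were matched to symbols with GENCODE 44 (97.9% in each table). Changes were fitted on log2(value + 1) with limma 3.58.1 in R 4.3.3 (lmFit, eBayes with trend, two-sided), over all listed transcripts for RNA and over genes with a mean of at least 10 in RPF and RNA otherwise, with Benjamini-Hochberg adjustment over all tested and a threshold of 0.05. TE was the interaction of line and kind of library. Code was tested on simulated data. Levels were compared per kilobase of mRNA (RNA) or coding sequence (RPF). Python 3.11.15, pandas 2.3.3, numpy 2.4.6 and matplotlib 3.10.9 made the tables and plots.

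The members and gene lists were chosen with earlier results of these data known. Named were members called in any test, the 3 highest and 3 lowest changes per readout and comparison, catalytic subunits, PSMB10, PSMD4, PSMD14, PSME1 to PSME4, the 3 highest and lowest levels per line, and pathway genes that were called or fixed by name, some of which are not reported here. Replicates shared a number between lines but nothing says that it pairs them: deviations of same-numbered libraries correlated at 0.23 and 0.04 (RNA and RPF, MDA-LM2 table) and -0.004 and 0.03 (knock-down). Alternatives covered scaling, filters, added value, moderation, test, threshold, replicate block, GC trend, core membership and each library left out.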

Additional observations from a re-analysis of the deposited data

How the results depend on the processing

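No called member changed its sign under the alternatives run. Outside the replicates left out, the number of members called in RNA of MDA-LM2 went from 5 to 8 with a replicate block (1 higher, 7 lower, where 23.6% of all transcripts were called), and in TE from 0 to 3 by logistic regression. On knock-down 1 member had an unadjusted p under 0.01 in RPF. The core minus lid RNA change in MDA-LM2, -0.04, was -0.087 with quantile normalisation, with a minimum mean of 50 and without PSMB10, and the TE value of 0.07 was 0.12 with quantile normalisation. The knock-down RPF value of 0.20 was 0.31 with a minimum mean of 50. Core over lid RPF density in sgControl was 1.87 without PSMB10, from 1.84. The cause was not tested.

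With a library left out, members called ranged from 0 to 22 in RNA, 2 to 4 in RPF and 0 to 0 in TE for MDA-LM2, and from 1 to 2, 0 to 1 and 0 to 0 on knock-down. Core minus lid ranged from -0.14 to 0.011 (RNA), -0.076 to 0.12 (RPF) and 0.024 to 0.15 (TE) for MDA-LM2, and from 0.017 to 0.12, 0.18 to 0.36 and 0.086 to 0.39 on knock-down. The lone library of a line was assumed to vary like the others.

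With the replicate number as a block, calls among the members were 8, 8 and 0 (RNA, RPF, TE) in MDA-LM2 and 3, 0 and 0 on knock-down. The numbers were not shown to pair the libraries. Removing the GC trend, chosen after seeing the data, gave 7 RNA calls in MDA-LM2 and 3 on knock-down, with 17.7% and 7.19% of all transcripts called. The planned count tests on recovered RNA reads were not run, since the worth of a single read could not be settled from the listed values, and SEM1, to be added to the lid, was not listed. The 2 libraries per line and kind limit every error given here, and the depth of the RPF libraries in reads is unknown.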
